A study of Mus musculus with 6 samples.

Results

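KDM5A-H483A and wild-type KDM5A were compared in immortalized mouse embryonic fibroblasts that lack the endogenous Kdm5a gene, by matching the 2 arrays of each group through their replicate number. They held either a vector with no insert (empty vector), one with wild-type KDM5A, or one with KDM5A-H483A, whose catalytic domain has alanine in place of a histidine. Thus all 3 groups share the Kdm5a-/- genotype, a mixed strain background and growth in medium with 10% serum to a subconfluent density. The comparison used 4 of the 6 arrays of the study, with the 2 empty vector arrays set beside them. In each replicate pair the wild-type value was subtracted from the KDM5A-H483A value, and a gene was taken where both differences had the same sign and were at least 0.5 on the log2 scale, about a 1.41-fold difference. This rule took 83 of 18194 genes, 42 higher and 41 lower in KDM5A-H483A (52 and 33 after quantile normalization of the genes). The labels do not give the age of the embryos, the vector, its promoter, whether cells were pooled or cloned, or what a replicate number shares.

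KDM5A, also named JARID1A or RBP2, belongs to the Jumonji demethylases, which use iron and 2-oxoglutarate to take methyl groups off histone lysines. The KDM5 family acts on lysine 4 of histone H3, whose methylation marks active promoters. The replaced histidine is one of the residues that hold the iron, so the mutant is used to set the enzymatic activity apart from other functions of the protein. KDM5A was first known as a partner of the retinoblastoma protein, and it binds promoters of cell cycle, mitochondrial and differentiation genes, alone or with SIN3 and histone deacetylase complexes. A gene whose level in empty vector cells lies by KDM5A-H483A and apart from wild type is therefore a candidate for dependence on the catalytic histidine. The design asks which genes are of that kind.

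The genes higher in KDM5A-H483A included several of ribosome assembly, among them Nolc1, Nop56 and Nop58, which came from the list of ribosome biogenesis and Myc target genes. Nolc1 encodes a nucleolar phosphoprotein that chaperones small nucleolar ribonucleoproteins, and Nop56 and Nop58 encode the core proteins of the box C/D particles that guide methylation of ribosomal RNA. The lower genes included Kdm3a, which encodes a demethylase of lysine 9 of histone H3. The stretches upstream of these 4 genes are shown because KDM5A acts at promoters. The 4 were picked by hand from the 11 chosen genes that belong to a list, so they are examples only. They come from RefSeq, build GRCm38.p6, on the strand of each gene and outside its annotated span. Capitals mark the GC box, GGGCGG or CCGCCC on either strand. It is known as a binding sequence of SP1, and CCGCCC was also described for the ARID domain of KDM5A.
Nolc1, chr19:46075597-46075846, plus strand: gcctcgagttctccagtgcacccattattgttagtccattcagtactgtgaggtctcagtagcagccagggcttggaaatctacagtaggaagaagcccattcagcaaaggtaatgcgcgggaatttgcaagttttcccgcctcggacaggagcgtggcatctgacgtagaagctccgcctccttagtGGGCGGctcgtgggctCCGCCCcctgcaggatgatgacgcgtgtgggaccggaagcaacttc
Nop56, chr2:130274162-130274366, plus strand: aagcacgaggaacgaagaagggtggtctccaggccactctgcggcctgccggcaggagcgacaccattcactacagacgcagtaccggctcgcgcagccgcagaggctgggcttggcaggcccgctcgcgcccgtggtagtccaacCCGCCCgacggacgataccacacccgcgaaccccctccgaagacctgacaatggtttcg
Nop58, chr1:59684756-59684960, plus strand: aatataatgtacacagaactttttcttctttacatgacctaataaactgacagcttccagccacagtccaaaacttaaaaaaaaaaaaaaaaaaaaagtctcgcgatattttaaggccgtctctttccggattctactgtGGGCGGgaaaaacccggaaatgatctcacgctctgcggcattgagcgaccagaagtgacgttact
Kdm3a, chr6:71632991-71633167, minus strand: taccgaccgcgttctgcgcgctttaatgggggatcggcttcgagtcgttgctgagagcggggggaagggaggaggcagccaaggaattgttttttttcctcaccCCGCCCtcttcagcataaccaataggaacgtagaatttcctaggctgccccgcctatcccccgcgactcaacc

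These stretches held 2 GC boxes for Nolc1 and 1 each for Nop56, Nop58 and Kdm3a. None held the E-box CACGTG, the sequence that MYC and MAX bind. A GC box was also counted in a window of 250 bases per gene, which can reach into the annotated span, unlike the stretches shown. It stood in 22 of 35 higher and 18 of 30 lower genes with a RefSeq promoter. The share was 49.9% of the 14453 measured genes with such a promoter. The E-box stood in 3 of the 35 and 3 of the 30, against 7.56%. A match describes letters only. Binding of KDM5A and methylation of histone H3 were not measured on these arrays.

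Fibroblast genes were bright on all arrays. The 10 defining fibroblast markers, Col1a1, Col1a2, Col3a1, Pdgfra, Pdgfrb, Thy1, Vim, Fn1, Prrx1 and Twist1, lay between 7.31 and 13.4 on the log2 scale. Markers of epithelial, endothelial, blood, skeletal muscle and neural cells had median levels between 3.12 and 5.33, and 4 of these 22 genes reached a mean of 6. The arrays cannot tell fewer cells of a type from less RNA per cell. The second arrays of both KDM5A groups differed from the first in many genes, and this shared replicate difference had a Pearson r of 0.53 between the groups (18194 genes, not independent of each other). The summed fibroblast markers moved with it, at 15.4 and 14.6 for wild type, 15.3 and 14.7 for KDM5A-H483A, and 15.2 and 15.1 with empty vector (log2 of the sum, first and second array). Its part in the results was not tested.

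Kdm5a itself did not separate KDM5A-H483A from wild type at its brightest probe set, where the groups overlapped. It stood at 5.96 and 5.83 for wild type and 6.11 and 5.89 for KDM5A-H483A, a mean paired difference of 0.11 (SE 0.12; probe set mean -0.11). The probe set mean is the mean paired difference after averaging all probe sets of a gene. A second Kdm5a probe set was lower in KDM5A-H483A by 0.66 in each pair, at 6.14 and 5.50 with wild type, 5.48 and 4.85 with KDM5A-H483A, and 5.63 and 5.85 with empty vector. Empty vector stood at 5.89 and 5.83 at the brighter probe set, within the range of the wild-type arrays, and was not the lowest group at the second. The sources used here do not place these probes relative to the deletion or the introduced sequence, and they check neither. Of the other H3K4 demethylases of the family, Kdm5b had a mean paired difference of 0.28 (SE 0.18; probe set mean 0.11), Kdm5c -0.24 (SE 0.14; probe set mean -0.10) and the Y-linked Kdm5d -0.36 (SE 0.13; probe set mean -0.22), with limma adjusted p of 0.650, 0.618 and 0.520.

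The paired differences of all genes show how few were of one sign and size. Limma, with the replicate number as a block shared by both KDM5A groups, called 0 of 18194 genes at an adjusted p under 0.05 (percent called: 0), and its smallest adjusted p was 0.520. Unadjusted p-values under 0.05 were found for 1703 genes (9.36%), of which 778 were higher and 925 lower, and for 694 without the block. The 95% confidence interval reached 0.32 above and below the difference of the median gene.

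**Figure D1:**
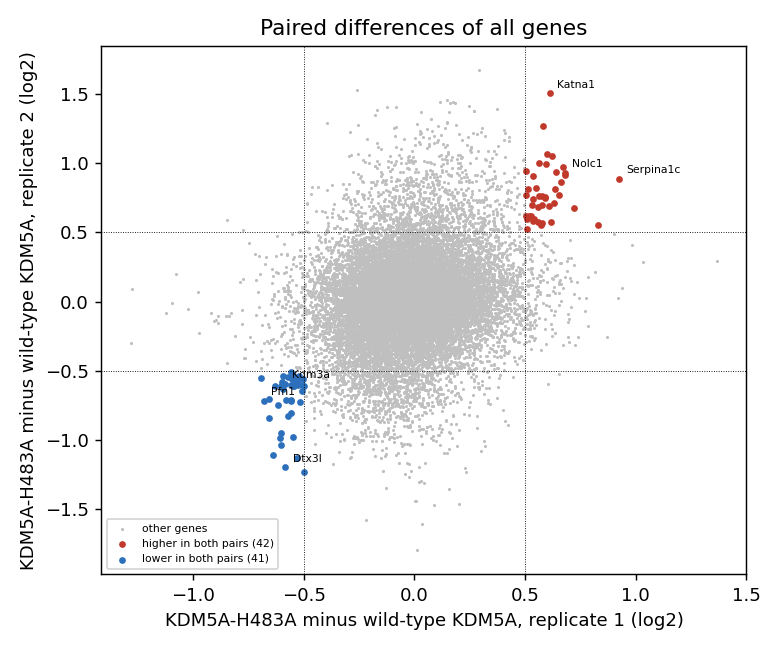
KDM5A-H483A minus wild-type KDM5A in replicate 1 (horizontal, log2) against replicate 2 (vertical, log2) for all 18194 genes, with dotted lines at 0.5 and -0.5. The 42 genes higher (red) and 41 lower (blue) in both pairs sit in opposite corners, and the cloud is wider along the second pair.

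The second pair differed more than the first. Differences of at least 0.5 in size occurred in 454 genes in the first pair and 2275 in the second, and differences of at least 1 in 8 and 214. Both pairs reached 0.5 with one sign in 0.456% of genes (0.231% higher, 0.225% lower), which is the rule itself, and with opposite signs in 6 genes (0.033%): Cbr1, Gnai1, Kdm6b, Ptgs2, Rev1 and Tmem35b. Across genes the differences of both pairs had a Pearson r of 0.18. The signs matched in 54.7% of all genes. No gene reached 1 in both pairs. Among the 83 genes the second pair was the larger in 70, and the mean paired difference lay between 0.52 and 1.06 in size, or 1.43-fold to 2.08-fold. Limma gave the 83 genes adjusted p-values between 0.520 and 0.587. Since the rule chose them on the same differences, their SEs below describe precision and are not tests. Each SE also draws on the gap between the 2 empty vector arrays, so it is not the spread of the paired differences alone. Pfn1, for example, had paired differences of -0.68 and -0.71 but an SE of 0.20, with empty vector arrays 0.65 apart. Averaging all probe sets of a gene moved the mean difference by over 1.5 times in 33 of the 56 named genes, and for these the probe set mean is given. Named genes with a single probe set, such as Kdm3a, Pfn1, Tgif1, Psma4 and Katna1, could not move and were not checked in this way. Ankrd1, Axl, Hbegf and Nop56 have further probe sets and moved less. Genes outside the lists are grouped below by known function after their values were seen, with no count or test behind the grouping.

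Among higher genes, Serpina1c had the largest smaller difference. It encodes an alpha-1-antitrypsin, a serine protease inhibitor of liver and plasma. It stood at 4.60 and 4.89 with wild type, 5.53 and 5.78 with KDM5A-H483A and 5.43 and 5.39 with empty vector. Both wild-type arrays were below both arrays of each other group. The paired differences were 0.93 and 0.89, with a mean of 0.91 (SE 0.12). The signal is weak, with a mean of 5.27 over all arrays against 5.52 for the median gene, and no further probe set was assigned to the gene.

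Several higher genes act in the nucleolus and in ribosome assembly. Nolc1 stood at 5.94 and 6.95 with wild type, 6.62 and 7.88 with KDM5A-H483A and 7.06 and 6.86 with empty vector, with a mean paired difference of 0.81 (SE 0.14; probe set mean 0.33). Nop56 stood at 7.22 and 7.85, 7.81 and 8.61 and 8.06 and 7.74, with groups in that order, a mean difference of 0.68 (SE 0.15). Nop58 stood at 7.91 and 8.65, 8.43 and 9.27 and 8.53 and 8.71, a mean difference of 0.57 (SE 0.13). In these 3 genes the first wild-type array was the lowest of the 6 and the second KDM5A-H483A array the highest, while the second wild-type array lay above the first KDM5A-H483A array. The groups thus overlapped, and the difference appears only within pairs.

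Esf1, which encodes a nucleolar factor of ribosomal RNA processing, stood at 8.25 and 8.39, 8.93 and 9.31 and 9.28 and 8.79 in that order, with a mean difference of 0.80 (SE 0.18; probe set mean 0.40). Here the wild-type arrays lay below the other 4. Gnl2, a nucleolar GTPase of large subunit export, stood at 6.36 and 7.03, 6.96 and 7.72 and 7.29 and 6.92, with a mean difference of 0.65 (SE 0.15; probe set mean 0.33). Ebna1bp2, another large subunit assembly factor, stood at 6.55 and 7.0, 7.15 and 8.0 and 7.50 and 7.19, with a mean difference of 0.79 (SE 0.16; probe set mean 0.36). Gnl2 overlapped between the KDM5A groups and Ebna1bp2 did not. Pa2g4, a growth-regulated factor that associates with ribosomes, stood at 8.88 and 9.39, 9.52 and 10.20 and 9.89 and 9.57, with a mean difference of 0.72 (SE 0.15; probe set mean 0.20). Tma16, which binds large subunit precursors, had paired differences of 0.59 and 0.75 (probe set mean 0.35).

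Of the 31 measured genes of the ribosome biogenesis and Myc target list, 0 passed the adjusted threshold, 3 were higher by the rule and 0 lower. Both pairs were above 0 in 16 and below 0 in 4, against 25.5% and 29.3% of all genes. The median mean paired difference was 0.18, with 0.14 in the first pair and 0.29 in the second, where the median over all genes was -0.01. The unadjusted p was under 0.05 for 12 of the 31, all higher, against 9.36% of all genes. Among them were the nucleolin gene Ncl, at 9.34 and 9.73 and 9.63 and 11.40 with wild type and KDM5A-H483A, and the fibrillarin gene Fbl, at 7.76 and 8.23 and 8.08 and 9.15. Their paired differences were 0.29 and 1.67 for Ncl and 0.31 and 0.93 for Fbl, so the second pair carried most of each. The list also took part in the replicate difference, its median being higher in the second KDM5A arrays than in the first by 0.71.

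Other higher genes included Uchl5, Psma4, Ubxn2a and Katna1. Uchl5, a deubiquitinase of the proteasome, stood at 7.34 and 8.02 with wild type, 7.96 and 9.07 with KDM5A-H483A and 8.16 and 7.85 with empty vector. Its mean paired difference was 0.84 (SE 0.16; probe set mean 0.30), and its groups overlapped. The proteasome subunit gene Psma4 stood at 9.30 and 9.35, 9.89 and 10.62 and 10.05 and 9.49, with a mean difference of 0.92 (SE 0.22). All Psma4 arrays with KDM5A-H483A or empty vector lay above both wild-type arrays. Ubxn2a, an adaptor of the p97 segregase, stood at 6.60 and 7.0, 7.28 and 7.97 and 7.25 and 7.09, with a mean difference of 0.82 (SE 0.14; probe set mean 0.34). Katna1, the catalytic subunit of the microtubule-severing katanin, had the largest mean difference of the 83 genes, at 1.06 (SE 0.27). Its values were 5.33 and 5.49, 5.94 and 7.0 and 6.15 and 5.44, and the second KDM5A-H483A array alone stood near 7.

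Ctcf, Osr1 and Spr were also among the leading higher genes. Ctcf, the insulator protein that organizes chromatin loops, stood at 6.33 and 6.35 with wild type, 6.99 and 7.22 with KDM5A-H483A and 7.40 and 6.67 with empty vector. The KDM5A groups did not overlap for Ctcf, with a mean difference of 0.76 (SE 0.22; probe set mean 0.25), but its second probe set was lower in KDM5A-H483A, by -0.17 and -0.34. Osr1, a zinc finger factor of kidney, heart and limb mesenchyme, stood at 6.62 and 6.71, 7.34 and 7.39 and 5.93 and 7.06, and the empty vector arrays lay 1.13 apart. Spr, the reductase of the last step of tetrahydrobiopterin synthesis, stood at 5.10 and 4.94, 5.74 and 5.88 and 5.60 and 5.29, with a mean difference of 0.79 (SE 0.15). Its values lay in order, with wild type lowest and KDM5A-H483A highest. The Spr signal is also weak, with a mean of 5.43 over all arrays against 5.52 for the median gene.

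Ankrd1, Hbegf and Eno3 were higher by the rule as well. Ankrd1, a target of the YAP and TEAD factors that encodes a nuclear and sarcomeric ankyrin repeat protein, stood at 4.28 and 6.02, 4.88 and 7.08 and 4.48 and 5.23, again with groups in that order. Its replicate difference, 1.74 in wild type and 2.20 in KDM5A-H483A, was larger than its mean paired difference of 0.83 (SE 0.24). Hbegf, a ligand of the epidermal growth factor receptor, stood at 8.52 and 9.24, 9.06 and 9.84 and 9.67 and 9.46, with paired differences of 0.54 and 0.59. Both empty vector arrays lay above both wild-type arrays. Eno3, the muscle form of enolase, stood at 6.08 and 6.49, 6.66 and 7.26 and 6.02 and 6.31, so that empty vector lay with wild type.

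**Figure D2:**
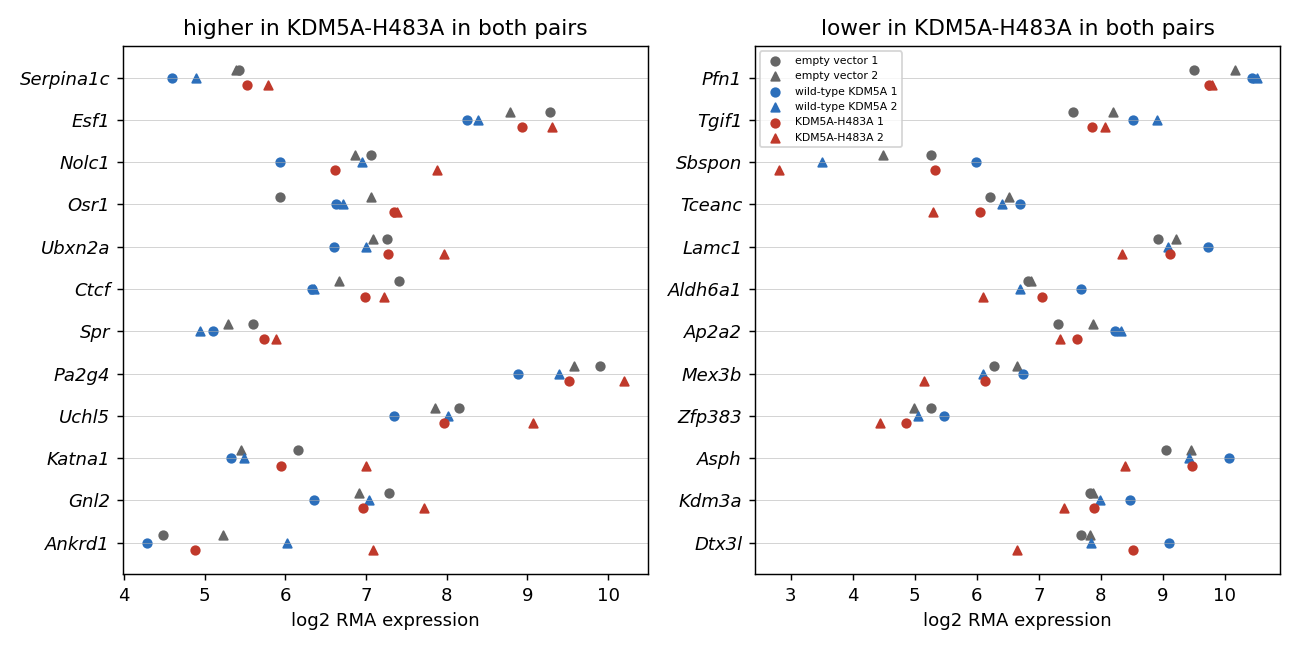
Log2 RMA expression (horizontal) of the 12 genes in each direction with the largest smaller paired difference; circles are first and triangles second arrays, grey empty vector, blue wild-type KDM5A and red KDM5A-H483A. Serpina1c and Pfn1 separate wild type from KDM5A-H483A, while in Nolc1 and Dtx3l the groups overlap and each pair differs.

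Among lower genes, Pfn1 came first. It encodes profilin, which feeds actin monomers to growing filaments. It stood at 10.43 and 10.51 with wild type, 9.75 and 9.80 with KDM5A-H483A and 9.51 and 10.16 with empty vector. The paired differences were -0.68 and -0.71, with a mean of -0.70 (SE 0.20). The wild-type arrays lay 0.08 apart and above the other 4, and the empty vector arrays lay 0.65 apart.

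Lower genes with roles in transcription and chromatin included Tgif1, Kdm3a, Uty and Rbbp4. Tgif1, a homeobox corepressor of TGF-beta and retinoid signalling, stood at 8.52 and 8.91 with wild type, 7.86 and 8.07 with KDM5A-H483A and 7.55 and 8.20 with empty vector. Its mean difference was -0.75 (SE 0.21), and both wild-type arrays were above the other 4. Kdm3a stood at 8.47 and 7.99, 7.89 and 7.40 and 7.83 and 7.88, with paired differences of -0.58 and -0.59 and a mean of -0.59 (SE 0.12). Its empty vector arrays lay level with the first KDM5A-H483A array and below both wild-type arrays. Uty, a Y-linked relative of the demethylase of lysine 27 of histone H3, stood at 7.61 and 7.40, 7.11 and 6.17 and 7.06 and 7.08, with a mean difference of -0.87 (SE 0.18; probe set mean -0.25). Rbbp4, a histone-binding subunit of deacetylase and polycomb complexes, stood at 8.81 and 8.50, 8.12 and 7.94 and 8.03 and 9.26, with a mean difference of -0.62 (SE 0.33; probe set mean -0.18). The empty vector arrays of Rbbp4 lay 1.23 apart, more than either paired difference, and its 2 further probe sets with means of at least 6 had mean differences of -0.16 and 0.04. Mex3b, an RNA-binding regulator, and Tceanc, which carries a domain of the elongation factor TFIIS, had paired differences of -0.60 and -0.95 and of -0.64 and -1.11.

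Of the 20 measured genes of other lysine demethylases, 2 were lower by the rule, Kdm3a and Uty, and 0 higher. Both pairs were below 0 in 9 and above 0 in 2, with a median mean difference of -0.13, where all genes had 29.3% below and 25.5% above. The same shares of all genes are the background of the next 2 counts. Genes of H3K4 methyltransferases and their complexes, the writers of the mark that KDM5A removes, were below 0 in both pairs in 7 of 15 and above in 0, with a median of -0.05 in the first pair and -0.32 in the second. Men1, the menin gene, stood at 8.0 and 7.61 with wild type and 7.68 and 6.97 with KDM5A-H483A, and Setd1a at 7.60 and 7.50 and 7.30 and 7.19. Kmt2c stood at 8.25 and 8.01 and 8.30 and 6.70, a difference in the second pair only. Of 22 genes of the SIN3, deacetylase and NuRD partners, 11 were below 0 in both pairs and 4 above, and Rbbp4 was lower by the rule. None of these genes passed the adjusted threshold.

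Lower genes of matrix and membrane included Lamc1, Axl and Plat. Lamc1, the gamma subunit of most laminins, stood at 9.73 and 9.09 with wild type, 9.12 and 8.34 with KDM5A-H483A and 8.93 and 9.21 with empty vector, with a mean difference of -0.68 (SE 0.14; probe set mean -0.13). Asph, a hydroxylase of the endoplasmic reticulum, stood at 10.07 and 9.42, 9.46 and 8.39 and 9.05 and 9.46, with a mean difference of -0.82 (SE 0.18; probe set mean -0.17). Lamc1 and Asph overlapped between the groups, since each second array was below its first. The one further probe set of Lamc1 was higher in KDM5A-H483A, by 0.31 and 0.55. Axl, a receptor tyrosine kinase and YAP target, stood at 10.01 and 9.98, 9.49 and 9.25 and 9.22 and 9.85, with a mean difference of -0.62 (SE 0.20). All Axl arrays outside the wild-type group lay below both wild-type arrays. Plat, the tissue plasminogen activator, had paired differences of -0.57 and -0.55 (probe set mean -0.29) at values of 9.52 and 7.59 and 8.95 and 7.04, and its second arrays lay -1.93 and -1.91 from the first. Itgb8, an integrin subunit that activates TGF-beta, had paired differences of -0.56 and -0.51, and Ap2a2, a subunit of the clathrin adaptor, -0.61 and -0.98 (probe set mean -0.24). Sbspon, a matrix gene with a thrombospondin repeat, had -0.66 and -0.70 (probe set mean -0.45) at values between 2.81 and 5.99.

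The list of collagen and extracellular matrix genes had 0 of 37 members past the adjusted threshold or chosen by the rule. Both pairs were below 0 in 21 and above in 3, against 29.3% and 25.5% of all genes, with medians of -0.23 and -0.14 in the first and second pair. The small proteoglycan gene Aspn stood at 8.95 and 6.35 with wild type and 8.50 and 5.43 with KDM5A-H483A. Col11a1, a minor fibrillar collagen, stood at 8.88 and 7.95 and 8.51 and 6.77. Fbln2, a basement membrane glycoprotein, went the other way, at 11.39 and 10.86 and 11.75 and 11.43. The median of this list was lower in the second KDM5A arrays than in the first by -0.90, so the paired differences were small beside the replicate difference.

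The interferon-stimulated list had no member past the threshold, and its medians differed between the pairs. Dtx3l, a ubiquitin ligase that works with PARP9 in this response, was lower by the rule, at 9.10 and 7.84 with wild type, 8.52 and 6.64 with KDM5A-H483A and 7.69 and 7.82 with empty vector, with a mean difference of -0.89 (SE 0.17; probe set mean -0.47). Dtx3l was not in that list. Of the 36 measured members, 0 were chosen by the rule or passed the adjusted threshold, 17 were below 0 in both pairs and 2 above, against 29.3% and 25.5% of all genes, and in 17 the signs differed. The medians were -0.33 in the first pair and -0.03 in the second. Irf9, a subunit of the interferon-activated factor ISGF3, stood at 7.95 and 6.41 with wild type and 7.23 and 5.97 with KDM5A-H483A, against 6.71 and 6.77 with empty vector. Rtp4, a transporter-like interferon target, stood at 9.26 and 6.35, 8.50 and 5.95 and 7.29 and 6.97. Both second KDM5A arrays lay below empty vector in Irf9 and Rtp4, and both first arrays above.

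The other lists held few or no chosen genes. DNA replication genes were above 0 in both pairs in 12 of 28 and below in 2, against 25.5% and 29.3% of all genes, with a median of 0.11, among them Rrm1, a subunit of ribonucleotide reductase, with paired differences of 0.35 and 0.63. Sterol and fatty acid synthesis genes were below 0 in both pairs in 10 of 21 and above in 6, against 29.3% and 25.5%, with a median of -0.14. Mitochondrial ribosome genes had medians of -0.01 in the first pair and 0.53 in the second, and lysosome genes of -0.23 and 0.24, so the pairs did not share a direction. Oxidative phosphorylation, p53 target, glycolysis and retinoid metabolism genes likewise had medians of opposite sign in the pairs. The retinoblastoma and E2F family had none of 13 members chosen, and the CDK inhibitors none of 7. Over all 41 lists, 11 of the 83 genes were members of a list, against 768 of all 18194 genes.

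**Figure D3:**
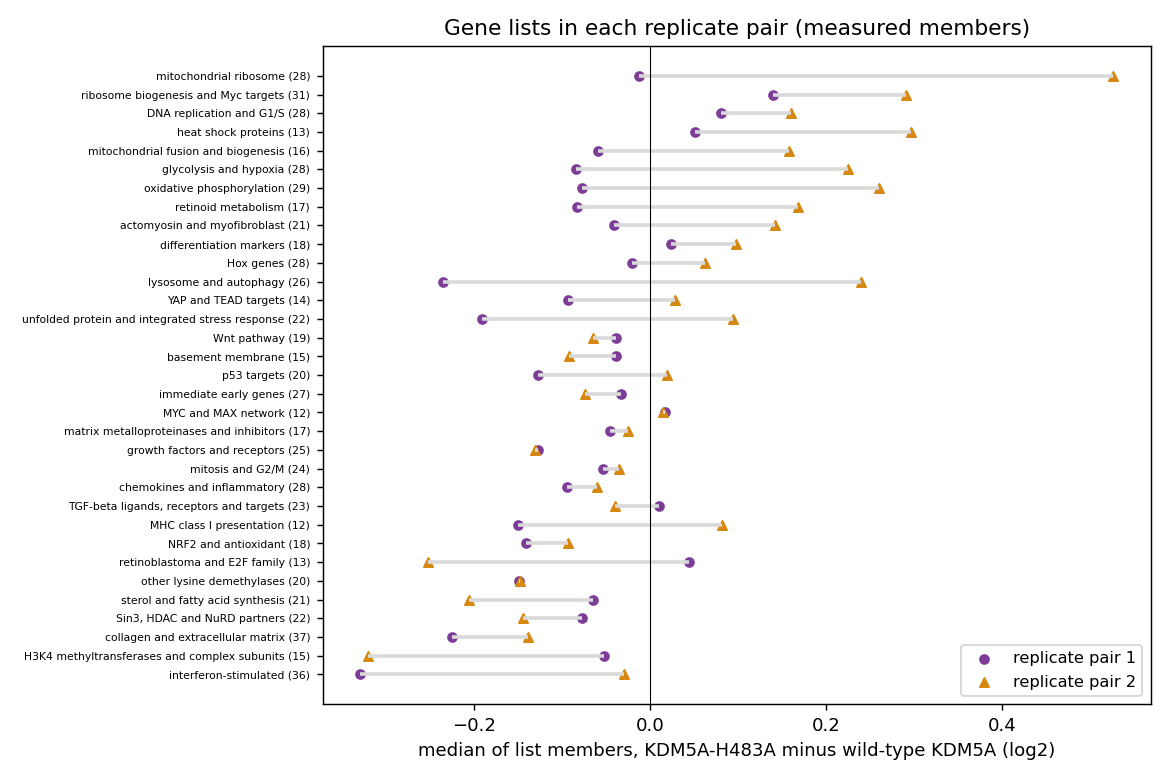
Median difference between KDM5A-H483A and wild-type KDM5A (log2) over the measured members of each list with at least 10 members, cell type markers left out, in the first pair (circles) and second pair (triangles), ordered by the median of the mean paired difference. The ribosome biogenesis list lies above 0 in both pairs and the matrix and interferon lists below 0, while the mitochondrial ribosome and lysosome lists differ between the pairs.

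Empty vector values were set beside the 83 genes. The mean of the empty vector arrays lay nearer to KDM5A-H483A than to wild type in 51 of the 83 genes, 25 higher and 26 lower, and nearer to wild type in 32. Over all genes it lay nearer to KDM5A-H483A in 49.9%. It lay beyond KDM5A-H483A in 5, beyond wild type in 8 and between the KDM5A groups in 70, against 39.3% of all genes for lying between. Both empty vector arrays lay apart from both wild-type arrays, on the KDM5A-H483A side, in 49 genes. They lay apart from both KDM5A-H483A arrays, on the wild-type side, in 23, and 11 genes were in both counts. The shares over all genes were not computed for these counts of arrays apart, so nothing particular to the 83 genes is read from them. Without the first empty vector array the 23 became 56, but the condition then rests on a single empty vector array, so the count could only stay or rise. With that array left out, most of the 83 genes had empty vector nearer to wild type. The majority of 51 nearer to KDM5A-H483A thus depends on the first empty vector array. The wild-type and KDM5A-H483A arrays also chose the genes, so these counts describe positions and carry no test.

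**Figure D4:**
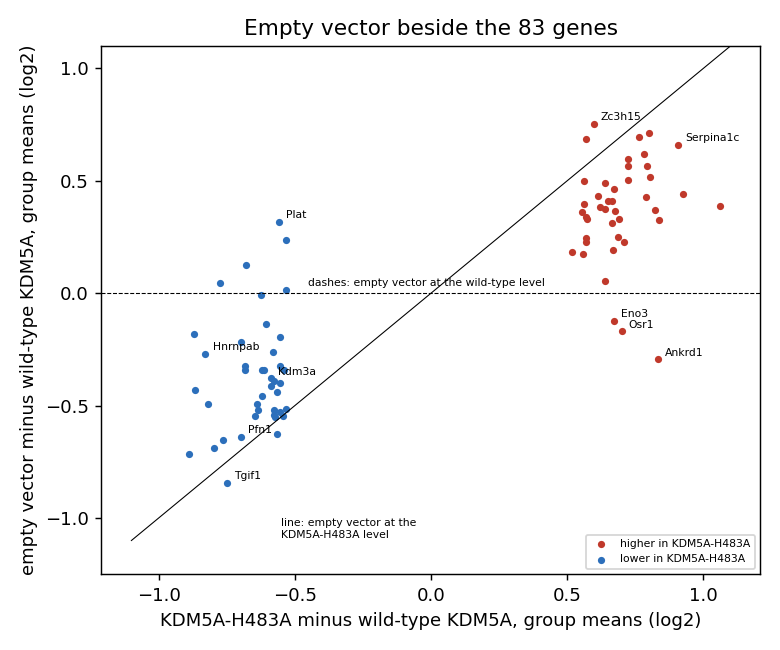
Empty vector minus wild-type KDM5A (vertical, log2) against KDM5A-H483A minus wild-type KDM5A (horizontal, log2) for group means of the 83 genes, red higher and blue lower in KDM5A-H483A. Points near the solid line have the empty vector mean at the KDM5A-H483A level, and points near the dashed line at the wild-type level. Pfn1 lies near the solid line, although its empty vector arrays stood apart, at 9.51 and 10.16.

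Candidates with empty vector on the KDM5A-H483A side were genes with both empty vector arrays apart from wild type and their mean nearer to KDM5A-H483A. They included Serpina1c, Esf1, Ctcf, Spr, Pa2g4 and Ebna1bp2 among higher genes. Among lower genes they included Pfn1, Tgif1, Ap2a2, Kdm3a, Dtx3l, Dcun1d1, Il1rap and Gnl3l. In Ctcf, Spr, Pfn1, Il1rap and Gnl3l the second empty vector array by itself lay nearer to the wild-type mean. For these genes the place by KDM5A-H483A holds for the empty vector mean only. Dtx3l met the condition only narrowly, with its second empty vector array at 7.82 and its second wild-type array at 7.84. Its KDM5A-H483A arrays, at 8.52 and 6.64, lay on either side of both empty vector arrays and overlapped wild type. Ubxn2a and Psma4 also had both arrays apart from wild type, but their mean was nearer to wild type. Dcun1d1, a factor of cullin neddylation, stood at 6.07 and 6.17 with wild type, 5.48 and 5.46 with KDM5A-H483A and 5.39 and 5.75 with empty vector, a mean difference of -0.64 (SE 0.15; probe set mean -0.20). Il1rap, the shared subunit of interleukin-1 family receptors, stood at 6.41 and 6.61, 5.81 and 6.04 and 5.95 and 6.26, a mean difference of -0.59 (SE 0.14; probe set mean -0.15). Gnl3l, a nucleolar GTPase, stood at 7.37 and 7.68, 6.81 and 6.96 and 6.72 and 7.29, a mean difference of -0.64 (SE 0.19; probe set mean -0.34), opposite in direction to the nucleolar genes above. In Dcun1d1, Il1rap and Gnl3l both wild-type arrays stood above the other 4.

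Genes with both empty vector arrays apart from KDM5A-H483A, on the wild-type side, included Osr1, Tma16 and Eno3 among higher genes and Tceanc, Mex3b, Zfp383, Tmem170b, Hnrnpab and Itgb8 among lower genes. In Serpina1c, Ubxn2a, Spr, Hsd3b2, Commd5, Vps13b and Chac2 the empty vector arrays lay between and apart from both KDM5A groups. Their mean was nearer to KDM5A-H483A in Serpina1c, Spr, Commd5 and Chac2 and nearer to wild type in Ubxn2a, Hsd3b2 and Vps13b. The probe set mean was 0.22 for Commd5, -0.22 for Vps13b and -0.31 for Zfp383, where the mean paired differences were 0.62, -0.58 and -0.60. Tceanc stood at 6.69 and 6.40 with wild type, 6.05 and 5.30 with KDM5A-H483A and 6.21 and 6.52 with empty vector. Chac2, an enzyme of glutathione breakdown, stood at 5.36 and 5.40, 4.81 and 4.85 and 5.02 and 5.10. Hnrnpab, an RNA-binding protein gene, stood at 10.87 and 11.36, 10.34 and 10.23 and 11.16 and 10.53, but with the mean of its probe sets the difference turned from -0.83 to 0.07. Hsd3b2, a steroid dehydrogenase gene, had values between 2.98 and 3.80, a weak signal beside the median gene at 5.52.

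The direction of the 83 genes went with the replicate difference. Of the 42 higher genes, 36 were higher in the second than in the first array of both KDM5A groups, against 28.4% of all genes. Of the 41 lower genes, 29 were lower in the second array of both, against 31.3% of all genes. These arrays also chose the genes. The exceptions among lower genes included Pfn1, Tgif1 and Ap2a2. In the empty vector pair most genes of both directions ran the other way, the second array being below the first in 38 of the 42 higher and in 10 of the 41 lower genes, against 50.3% of all genes. This opposite run was not limited to the 83 genes. Over all genes, Pearson r with the empty vector replicate difference (second minus first array) was -0.12 for the first paired difference and -0.39 for the second. Across all 18194 genes the mean paired difference had a Pearson r of 0.32 with the mean replicate difference of the KDM5A groups (second minus first array). The part of the replicate difference in these paired differences was not tested. With the arrays left unpaired, both arrays of one group lay above both of the other in 59 of the 83 genes and 31% of all genes. The rule used these 4 arrays, so nothing is read from that share.

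Further probe sets of the same genes gave a check on the signal within the same RNA. Of the 83 genes, 51 had further probe sets, 104 in all. Both paired differences shared the sign of the chosen probe set in 39 and opposed it in 19, and 2 reached 0.5 in both. Over all genes whose pairs shared a sign, 33.3% of further probe sets shared it. The 39 of 104 lie near that share, so nothing particular to the 83 genes is read from them. For the 19 and the 2, the share over all genes was not computed. Among those with a mean of at least 6, the sign was shared by 13 of 24 for higher genes and 3 of 14 for lower genes. The share over all genes was not computed for further probe sets of that brightness. Both that reached 0.5 belonged to higher genes, Eprs, a tRNA synthetase (0.65 and 0.94), and Zc3h15, a zinc finger factor (0.60 and 0.51). For the nucleolar genes, a further probe set had paired differences of 0.25 and 0.47 for Nolc1, 0.34 and 0.51 for Nop56, and 0.59 and 0.37 for Gnl2. Another opposed it, by -0.12 and -0.22 for Nolc1, -0.03 and -0.25 for Gnl2, and -0.07 and -1.02 for Pa2g4, whose other 3 shared the sign. Esf1 had 0.67 and 0.50 at one and 0.05 and -0.40 at another. For lower genes, Lamc1 opposed its chosen probe set as given above, while Txnip, an inhibitor of thioredoxin, had -0.34 and -0.27 at its further probe set, and Smim7 had -0.39 and -0.30 at one and 0.12 and -0.07 at another.

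**Figure D5:**
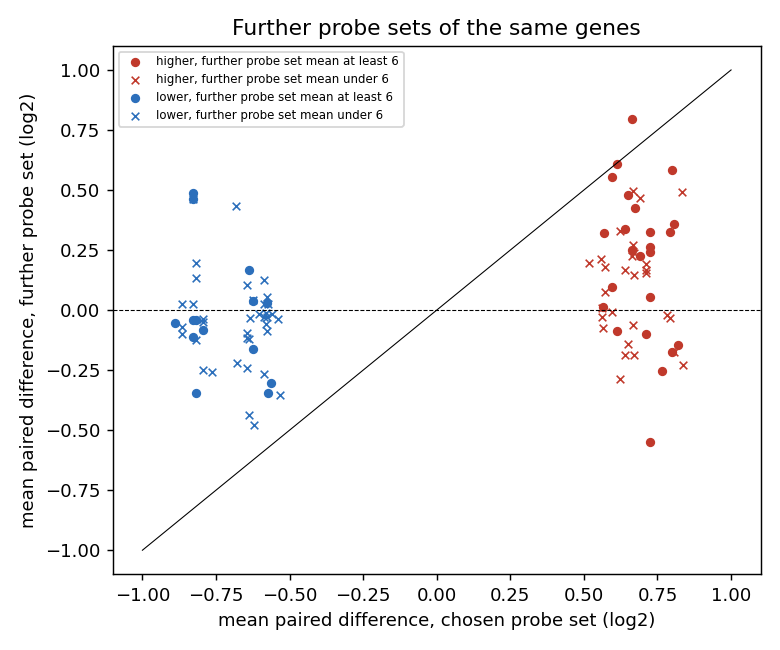
Mean paired difference (log2) of further probe sets (vertical) against that of the chosen probe set of the same gene (horizontal), red for higher and blue for lower genes, filled where the further probe set has a mean of at least 6 and crossed where it lies under 6. Most lie nearer to 0 than the solid line of equal differences, more so for lower genes.

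The edges of the rule show how finely it cuts. Just inside on the higher side were Cpsf2, a subunit of the polyadenylation complex, with 0.50 and 0.62 (probe set mean 0.18), and Pdap1 with 0.50 and 0.94 (0.39). Just outside were Tdrd3, a reader of methylated arginine, with 0.50 and 1.03 (probe set mean -0.04), and the mitochondrial ribosome gene Mrpl19 with 0.50 and 0.63 (0.31). On the lower side, Uty with -0.50 and -1.23 and Fbxo25 with -0.50 and -0.61 were inside and Dzip1 with -0.50 and -0.61 (probe set mean -0.14) and Dhx35 with -0.49 and -0.68 outside. Differences that round to 0.50 stand on both sides.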

How the data were processed

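Each group had 2 Affymetrix M430 2.0 arrays. The authors deposited log2 expression values, and RMA is named per the submitters' processing notes. The software version and annotation were not given in the sources used here. RMA quantile-normalizes the arrays, so a shift in total RNA cannot be seen, and it compresses differences of weak genes. Array medians lay between 4.55 and 4.60, and no further scaling was used. The number of arrays limits the precision, and p-values reflect only the spread among these arrays, which may be technical, since the labels do not say how cultures were separated.

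Of 45101 probe sets, 34958 had 1 gene symbol, 932 several and 9211 none listed. Symbols were updated through Entrez IDs (34754 matched). Each gene took its brightest probe set, leaving out those ending in _x_at where another existed, which gave 18194 genes. Limma (version 3.58.1, R 4.3.3) fitted 3 group means and a replicate block shared by the KDM5A groups, with 2 residual and 5.89 prior degrees of freedom, and p-values were two-sided and adjusted by Benjamini-Hochberg. The procedure was tested on simulated data. The labels do not say that a replicate number marks a shared batch or day, and 2 pairs cannot settle it. The replicate difference correlated at 0.53 between the KDM5A groups, 0.31 between empty vector and wild type, and 0.02 between empty vector and KDM5A-H483A.

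The named genes were, per direction, the 12 with the largest smaller paired difference, up to 4 chosen genes per list, the KDM5 family, 2 genes on each side of the threshold, and up to 8 by the position of empty vector; genes with only a clone or predicted symbol were passed over. Other genes named as list members, in opposite pairs or for their further probe sets were picked with their values in view. The 41 lists came from textbook knowledge, and 768 of their 813 genes were measured. The comparison, the rule and the lists were chosen with earlier results of these data known. Alternatives covered the block, the probe set, low values, scaling, the variance trend, the threshold and each array left out.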

Additional observations from a re-analysis of the deposited data

How the results depend on the processing

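Limma called 0 genes with other forms of the replicate block, other probe set choices, a mean of at least 6, both scalings and the variance trend. Leaving out each array gave between 0 and 0 genes (smallest adjusted p between 0.216 and 0.976); without a KDM5A array, 1 pair is left and the spread comes from the 2 empty vector arrays alone, so those runs say nothing about stability. With no replicate block it called 0 genes, with 694 at an unadjusted p under 0.05, and with the block common to all 3 groups 0, with 922. The block changed no call.

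The number of genes with both differences of at least 0.5 was 42 higher and 41 lower. It was 15 and 19 with the mean of each gene's probe sets, which shared 32 genes with the 83, and 95 and 94 over every probe set. It was 34 and 24 among genes with a mean of at least 6, 117 and 110 at a minimum of 0.4, and 0 and 0 at 1. Quantile normalization of the genes gave 52 and 33, and median centring 45 and 45. Leaving out 1 array gave between 42 and 1206 higher and between 41 and 1069 lower. The first pair alone (without the second wild-type or second KDM5A-H483A array) gave 211 and 243, and the second alone 1206 and 1069.

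Empty vector nearer to KDM5A-H483A was found for 51 genes, and for 19, 119, 149 and 0 with the mean of probe sets, every probe set, and minimum differences of 0.4 and 1. Both of its arrays apart from wild type were found for 49, and for 19, 108, 128 and 0 in the same order. Both apart from KDM5A-H483A were found for 23, and for 12, 48, 58 and 0, and for 14 with a mean of at least 6. Leaving out 1 array gave ranges of 35 to 641, 53 to 1327 and 27 to 1984 for these counts. Without the first empty vector array the first count was 35 of the 83 genes and the last was 56. The count of genes nearer to KDM5A-H483A can move either way. With fewer arrays the conditions are easier to meet, so the counts of arrays apart could only stay or rise. The mean of probe sets moved the mean difference of 33 of 56 named genes by over 1.5 times, and named genes with a single probe set could not move. Kdm5a turned to -0.11, Hnrnpab to 0.07 and Tdrd3 to -0.04 with the mean of probe sets; no other named gene changed sign in any alternative run. Of the 83 genes, 58 had a mean of at least 6, against 42.6% of all genes. Weak signal is a limit for those under 6.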

Other observations

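Some chromatin regulators were far lower in KDM5A-H483A in the second pair and level in the first. Arid4a, a subunit of SIN3 complexes that binds the retinoblastoma protein, stood at 7.02 and 7.03 with wild type, 7.03 and 5.24 with KDM5A-H483A, and 6.64 and 6.81 with empty vector. Kmt2e, a relative of the H3K4 methyltransferases, stood at 9.40 and 9.31 with wild type, 9.29 and 8.34 with KDM5A-H483A, and 9.31 and 9.37 with empty vector. In both genes the second KDM5A-H483A array alone stood below the other 5. Differences of at least 1 in size in the second pair were 144 higher and 70 lower, and in the first pair 2 higher and 6 lower. Kdm6b, a demethylase of lysine 27 of histone H3, went in opposite directions, with differences of -0.85 and 0.59. All 3 genes were picked with their values in view.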
